A study of Saccharomyces cerevisiae with 48 samples.

Results

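The mitochondrial genome of budding yeast was represented by 23 genes, chosen as all array genes whose systematic name starts with Q0, out of 6256 genes on the array. They comprised 8 protein-coding genes, 10 reading frames inside introns and 5 other frames. Each was measured by 1 probe printed as 2 spots. The values come from total RNA of haploid MATa cells, the mating type that responds to the pheromone alpha factor, hybridised to 48 1-colour Agilent arrays.

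The treated groups were 43 segregants of the cross YJM789 X S96 and the parental lines HS959 and S96, 1 array each, all incubated for 30 min with 5 µM alpha factor at 30 °C after growth to an OD of 0.6. The untreated group held 1 array each of HS959, S96 and the segregant SEG8. All parental arrays were on slide 1 together with 4 segregants, and the other segregants were on 5 further slides, 7 or 8 to a slide. How HS959 relates to YJM789 is not given in the sources used here, and each strain had a single array in a condition.

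Yeast mitochondrial DNA encodes a small set of respiratory chain and ATP synthase subunits, a ribosomal protein, ribosomal and transfer RNAs, and several intron-encoded proteins. It is transcribed by the nuclear-encoded polymerase Rpo41 as long transcripts that are cut into messages, and the transcripts of COX1 and COB carry self-splicing introns whose frames encode maturases, which help splicing, or endonucleases, which spread the intron. Strains differ in which introns they carry. Mitochondrial DNA is not inherited as nuclear genes are: the descendants of a zygote become fixed for 1 mitochondrial type, whereas each nuclear allele reaches about as many spores as its alternative.

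Levels are on the log2 scale after scaling each array to its 75th percentile, so a level of 0 is the brightness of that percentile, and a level is compared only with the same probe on other arrays. The median intensity was 9804 to 23353 over the arrays, on which 94.0% to 99.9% of spots of genes passed the scanner software's test for signal well above background, the lowest share being that of SEG14. FUS1, a gene induced by mating pheromone, was 3.62, 3.27 and 3.67 higher with alpha factor in S96, HS959 and SEG8. The 7 MATa marker genes were above background on all 48 arrays, as were the 4 MATalpha marker genes, whose median levels lay between -5.02 and -0.95. Of the 46 mitochondrial spots, 23 to 46 were well above background on an array. The labelling kit named in the labels starts from poly(A) tails, which yeast mitochondrial messages as a rule lack, so a level here is what that kit copied of them. With 1 probe a gene, less RNA and a probe that matches the strain's sequence less well cannot be told apart, nor can fewer cells with a transcript and less of it per cell.

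HS959 and S96 differed strongly at the mitochondrial probes, in both directions. In limma, with both conditions in 1 fit, 7 members were higher in HS959 and 4 were lower, and 12 did not pass an adjusted p of 0.05. Across the array 1291 of 6252 genes (20.6%) passed. The median difference was 0.97 over the 23 members and -0.09 over all genes. Among protein-coding members 5 were higher and 1 lower, and among intron frames 2 were higher and 2 lower.

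COX1 encodes subunit I of cytochrome c oxidase, the last complex of the respiratory chain. Its level was 1.95 with and 2.15 without alpha factor in HS959, against -3.04 and -3.21 in S96. Both HS959 arrays stood far above both S96 arrays, and the SEG8 arrays, at -2.07 and -2.72, were near S96. The difference was 5.17 ± 0.22 on the log2 scale (SE, 2 arrays a strain), or 36.1-fold (limma adjusted p = 0.000848).

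COX2, the second subunit of the same oxidase, stood at -2.83 with and -2.88 without alpha factor in HS959, against -7.79 and -8.35 in S96. Its groups did not overlap either, with a difference of 5.22 ± 0.16 and a limma adjusted p of 0.000374. With normexp background correction the difference was 4.30. COX3, the third mitochondrial subunit of the oxidase, stood at -3.30 and -3.20 in HS959, against -5.41 and -5.17 in S96. It was 2.04 ± 0.10 higher in HS959 (limma adjusted p = 0.00122), so the 3 oxidase subunits shared a direction but not a size.

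COB encodes cytochrome b of the bc1 complex. HS959 gave 0.07 with and -0.11 without alpha factor, against -1.84 and -2.39 in S96, and the groups did not overlap. COB was 2.09 ± 0.13 higher in HS959 (limma adjusted p = 0.00203).

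The ATP synthase genes ATP8 and ATP6, neighbours that are copied in 1 transcript with COX1, went opposite ways. ATP8 was 2.50 ± 0.39 higher in HS959, at -0.99 and -0.59 there against -2.81 and -3.77 in S96 (limma adjusted p = 0.0174). ATP6 stood at -10.02 with and -9.74 without alpha factor in HS959, against -5.28 and -5.35 in S96. The ATP6 probe was thus dim in HS959, with a difference of -4.56 ± 0.12, or 23.6-fold lower, and the smallest adjusted p of the members (limma, 0.000271). With normexp background correction the fold was 8.66.

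OLI1, the ring subunit of the ATP synthase, and VAR1, a protein of the mitochondrial ribosome, are copied together and neither passed the test. OLI1 was 3.10 and 3.13 in HS959, against 3.46 and 3.13 in S96, a difference of -0.18 ± 0.12. VAR1 was -3.56 and -3.37 in HS959, against -3.20 and -4.75 in S96, so the groups overlapped, with a difference of 0.52 ± 0.54.

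**Figure D1:**
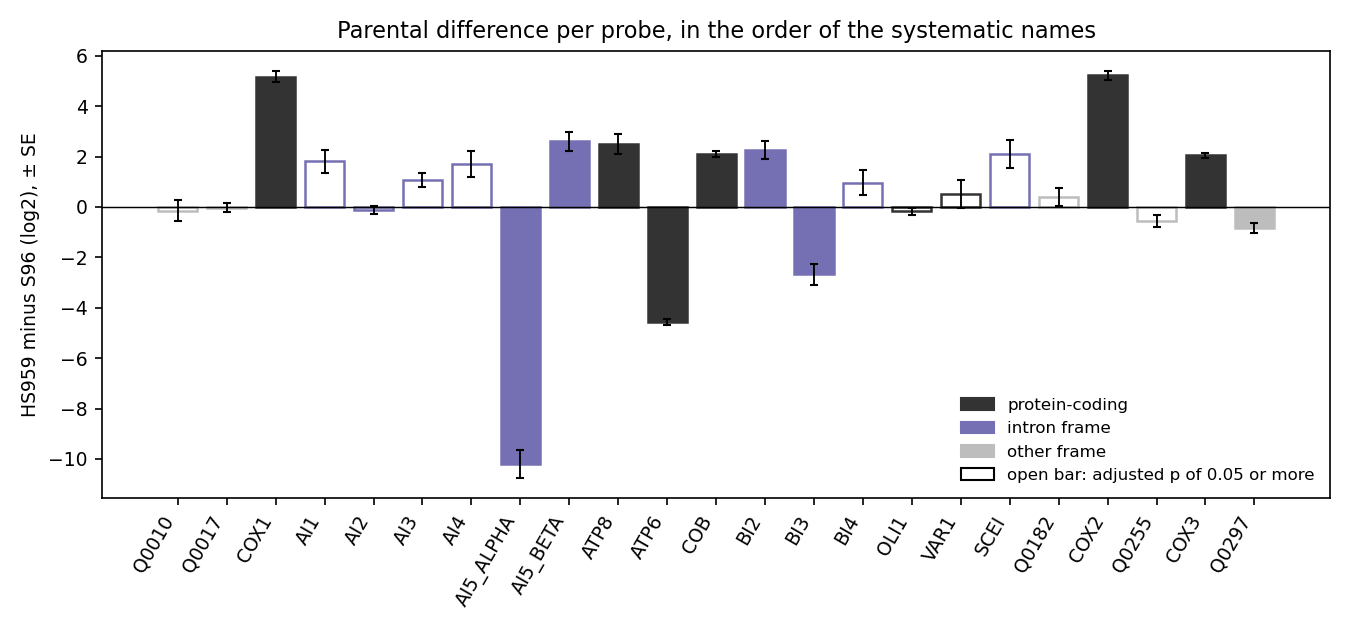
Log2 difference HS959 minus S96 per mitochondrial probe with its SE from limma (2 arrays a strain), in the order of the systematic names. Filled bars passed an adjusted p of 0.05. COX1 and COX2 stand above 5, AI5_ALPHA at -10.19 and ATP6 at -4.56. AI5_ALPHA and ATP6 each stand between probes of the opposite sign. COX1 stands between Q0017 at -0.03 and AI1 at 1.81, and COX2 between Q0182 at 0.41 and Q0255 at -0.56.

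The intron frames of COX1 are named AI1 to AI5_BETA after the intron that holds them. In the R64 gene table the frames AI1 to AI5_ALPHA start with COX1 and overlap it, since each reads on from the exons before it. AI5_ALPHA, an endonuclease frame, gave the largest difference of any member. Its level was -11.20 with and -9.56 without alpha factor in HS959, against 0.15 and -0.53 in S96 and 0.64 and 0.80 in SEG8. The lowest signals called well above background on the HS959 arrays were -11.53 with and -12.15 without alpha factor, so the treated value lay just over that limit and the untreated one further above it. The difference was -10.19 ± 0.55, or 1169-fold lower in HS959 (limma adjusted p = 0.00154). Leaving out 1 parental array, the fold was 604 without treated HS959, 2260 without untreated HS959, 676 without treated S96 and 2020 without untreated S96, and it was 294 with normexp background correction, each with a call.

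The frames on either side did not share this. AI5_BETA was 2.61 ± 0.38 higher in HS959, at -1.86 and -1.50 there against -3.82 and -4.77 in S96 (limma adjusted p = 0.0152). AI4, which encodes a protein known from both splicing and intron movement, differed by 1.69 ± 0.52 and did not pass (limma adjusted p = 0.0835). The frames AI1 and AI2, of group II introns with reverse transcriptase domains, differed by 1.81 ± 0.46 and -0.10 ± 0.16, with limma adjusted p of 0.0566 and 0.663. AI3, an endonuclease frame, differed by 1.05 ± 0.28 (limma adjusted p = 0.0617).

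Among the frames in the introns of COB, BI2 was 2.25 ± 0.35 higher in HS959, with levels of -4.98 and -4.73 there against -6.60 and -7.60 in S96 (limma adjusted p = 0.0180). BI3, a maturase frame, differed by -2.68 ± 0.42, at -10.93 and -10.41 in HS959 against -7.40 and -8.58 in S96 (limma adjusted p = 0.0177). The strains overlapped for neither frame, so 2 frames of 1 transcript differed in opposite directions. The maturase frame BI4 was dim in both strains and differed by 0.97 ± 0.51 (limma adjusted p = 0.229). SCEI, the homing endonuclease frame in the intron of the large ribosomal RNA, differed by 2.10 ± 0.56 and missed the threshold (limma adjusted p = 0.0627). Of the other frames, Q0297 was called, at -9.71 and -9.87 in HS959 against -8.62 and -9.30 in S96, a difference of -0.84 ± 0.19 (limma adjusted p = 0.0442). This call was lost under 6 of 10 alternatives, and with quantile normalization the difference was -0.05 (limma adjusted p = 0.935).

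The number of calls rests on few arrays. Without the treated HS959 array 6 members and 334 genes over the array passed, and without the untreated one 7 members and 383 genes did, against 1291 genes in the fit of all 6 arrays. The calls of AI5_BETA, ATP8 and BI2 were lost in both of these fits, that of BI3 in 3 of the 10 alternatives (limma adjusted p up to 0.0903), and without the treated S96 array 16 members and 604 genes passed. Without the treated or the untreated S96 array, the difference was 3.3 or 1.93 for AI5_BETA, 3.20 or 1.80 for ATP8, 2.88 or 1.61 for BI2 and -1.95 or -3.41 for BI3, and with normexp that of BI3 was -1.54. COX1, COX2, COX3, COB, ATP6 and AI5_ALPHA passed under all 10 alternatives.

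**Figure D2:**
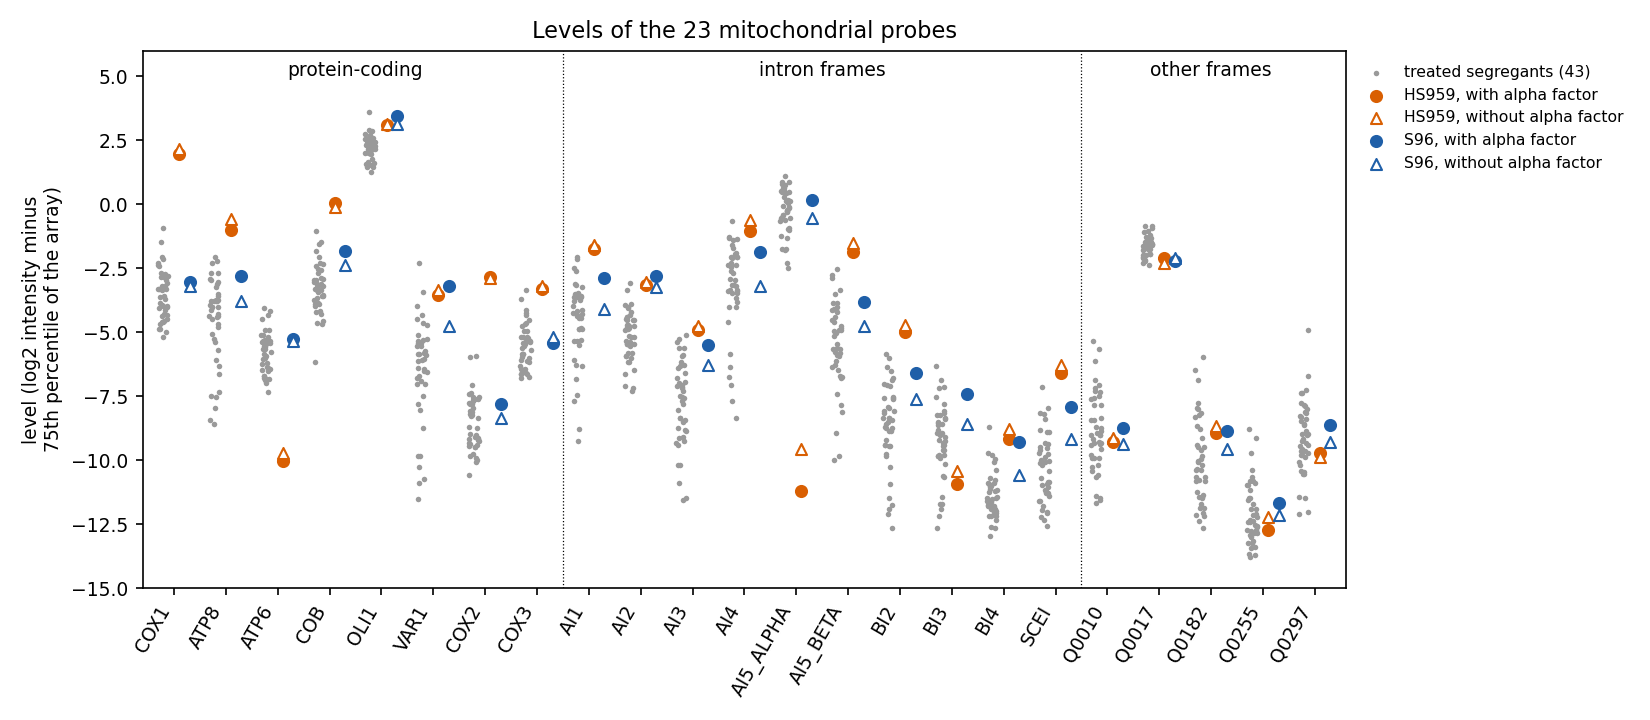
Levels (log2, scaled to each array's 75th percentile) of the 23 mitochondrial probes in 43 treated segregants (grey), HS959 (orange) and S96 (blue), with alpha factor (filled circles) and without (open triangles). The HS959 points of COX1, COX2, ATP6 and AI5_ALPHA lie outside the grey points.

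The segregants were then set against each treated parent. The 4 members with the widest parental gaps, AI5_ALPHA, COX1, COX2 and ATP6, all resembled S96 in the segregants. COX1 ran from -5.17 through a median of -3.59 to -0.94 over the 43 segregants, against 1.95 in HS959 and -3.04 in S96. No segregant reached the HS959 level, and 13 were above S96. COX2 ran from -10.59 through -8.69 to -5.93 in the segregants, against -2.83 in HS959 and -7.79 in S96, and again none reached HS959. ATP6 ran from -7.34 through -5.64 to -4.07 in the segregants, against -10.02 in HS959 and -5.28 in S96. AI5_ALPHA ran from -2.50 through -0.10 to 1.1 in the segregants, against -11.20 in HS959 and 0.15 in S96. All 43 segregants were above HS959 for both of these.

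In a limma fit with slide as a term, 7 of 6248 genes (0.112%) differed between the segregants and HS959, and these 4 members were among the 7. Segregants minus HS959 was -4.55 ± 0.81 for COX1 (limma adjusted p = 0.00148) and -4.94 ± 0.87 for COX2 (limma adjusted p = 0.00146). It was 4.79 ± 0.61 for ATP6 (limma adjusted p = 2.74e-06) and 11.33 ± 0.58 for AI5_ALPHA (limma adjusted p = 3.02e-18). These p-values take their error from the segregants, since HS959 had 1 treated array and its own spread was not measured. The other 3 genes, named after their values were seen, were HO, the mating-type switching endonuclease, and the frames YCR041W and YCR097W-A. The remaining 18 tested members did not pass. Since HS959 was measured on slide 1, these differences come from the 4 segregants there and the other slides add only to the spread. In a fit of slide 1 alone AI5_ALPHA passed (limma adjusted p = 0.0166), while COX2, ATP6 and COX1 had limma adjusted p of 0.0646, 0.856 and 0.999.

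Against S96, 0 of 6248 genes (0%) and 0 of 22 tested members passed in limma, with 1 member and 267 genes at an unadjusted p under 0.05. The difference of segregants minus S96 was 0.44 for COX1, with a 95% interval from -1.20 to 2.07. For COX2 it was 0.03 (-1.73 to 1.79), for ATP6 0.05 (-1.18 to 1.27) and for AI5_ALPHA -0.02 (-1.19 to 1.15). With 1 S96 array these intervals are wide, and they hold 0 while leaving room for differences of over 1 log2 unit. That 1 member was AI2, for which S96, at -2.79, was above all 43 segregants, which ran from -7.31 to -3.07.

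HS959 lay outside the range of the 43 segregants for 12 of the 22 tested members, against 238 of 6248 genes (3.81%). It was above all segregants for 10 of them, among them ATP8, COB, COX3, BI2 and SCEI, and below all for ATP6 and AI5_ALPHA. S96 lay outside the range for 1 member, against 415 of 6248 genes (6.64%). Levels of most members differed between slides, as described below, and both parents were on slide 1.

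Segregants on the S96 side of the midpoint between the treated parents were also counted. This was done for genes with a treated parental difference of at least 2, a threshold chosen with the values known. For COX1, COX2, ATP6 and AI5_ALPHA 43 of 43 segregants were on the S96 side. COX3, with a parental difference of 2.11, had 38, and BI3, with -3.53, had 22. The midpoint comes from slide 1 and was set against levels on all slides, which differed as described below. On slide 1 itself 2 of 4 segregants were on the HS959 side for COX3, as were 3 of 7 on slide 2 and 0 on the other slides. For COX1, COX2, ATP6 and AI5_ALPHA the count on the HS959 side was 0 on every slide. Among 182 nuclear genes past the same threshold, the median was 24 segregants (quartiles 20 and 27), and 2 of them (1.1%) had all 43 on the S96 side. Just under the threshold, AI5_BETA, with 1.96, had 41 segregants on the S96 side and COB, with 1.91, had 43. BI3 was above background in 32 of the 43 segregants, and in 0 of the 8 on slide 5.

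**Figure D3:**
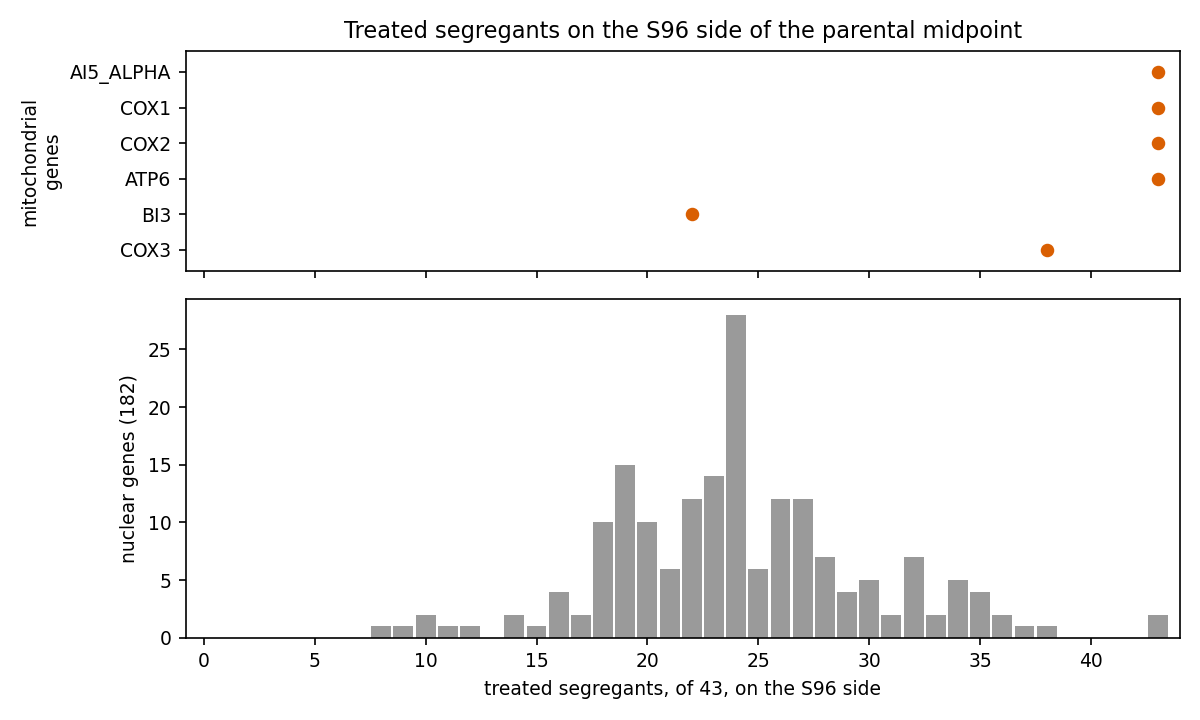
Number of treated segregants, of 43, whose level lay on the S96 side of the midpoint between the treated parents, for genes with a parental difference of at least 2. The upper panel has the 6 mitochondrial genes and the lower panel counts 182 nuclear genes. COX1, COX2, ATP6 and AI5_ALPHA sit at 43, and the nuclear genes centre on 24.

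Among the treated segregants, levels differed by slide. In limma 22 of 22 tested members differed between slides, against 2993 of 6248 genes (47.9%). One of them, BI4, was above background in 15 of 43 segregants and in 0 of 8 on slide 5. Its call was lost with outlier spots kept and without slide 5. BI3, SCEI and Q0182 were also above background in 0 of 8 segregants on slide 5, and BI2, Q0010 and Q0297 in 2. Slide held a median of 62.1% of a member's variance (36.5% to 79.5%), against 27.3% over all genes tested. VAR1 ran from -6.52 through -3.70 to -2.31 on slide 1, and from -11.51 through -10.06 to -7.49 on slide 5. Every segregant of slide 5 was below every segregant of slide 1, but only 4 of the 8 were above background for VAR1. AI4 ran from -3.49 through -2.63 to -1.34 on slide 1 and from -8.35 through -6.57 to -4.01 on slide 5. COX1 medians were -2.74 on slide 1 and -4.52 on slide 5, and those of COB were -1.68 and -4.36. OLI1, the least variable protein-coding member, had medians of 2.88 and 1.58.

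Slide 5 had the lowest median for 21 of 23 members. Q0017 went the other way, with medians of -2.00 on slide 1 and -1.30 on slide 5, the highest of the 6. The median level of nuclear genes was -1.24 on slide 1 and -1.30 on slide 5. On slide 5 97.0% to 98.6% of all gene spots were well above background, against 99.4% to 99.6% of those on slide 1, and 23 to 35 against 42 to 44 of the 46 mitochondrial spots. The part of spot detection in the slide pattern was not tested, and slide cannot be told apart from which segregants were placed on it. Without slide 5, 16 of the 22 members still differed between slides, against 885 of 6248 genes (14.2%). Q0010, AI3, ATP8, BI4, Q0182 and Q0297 lost their call.

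**Figure D4:**
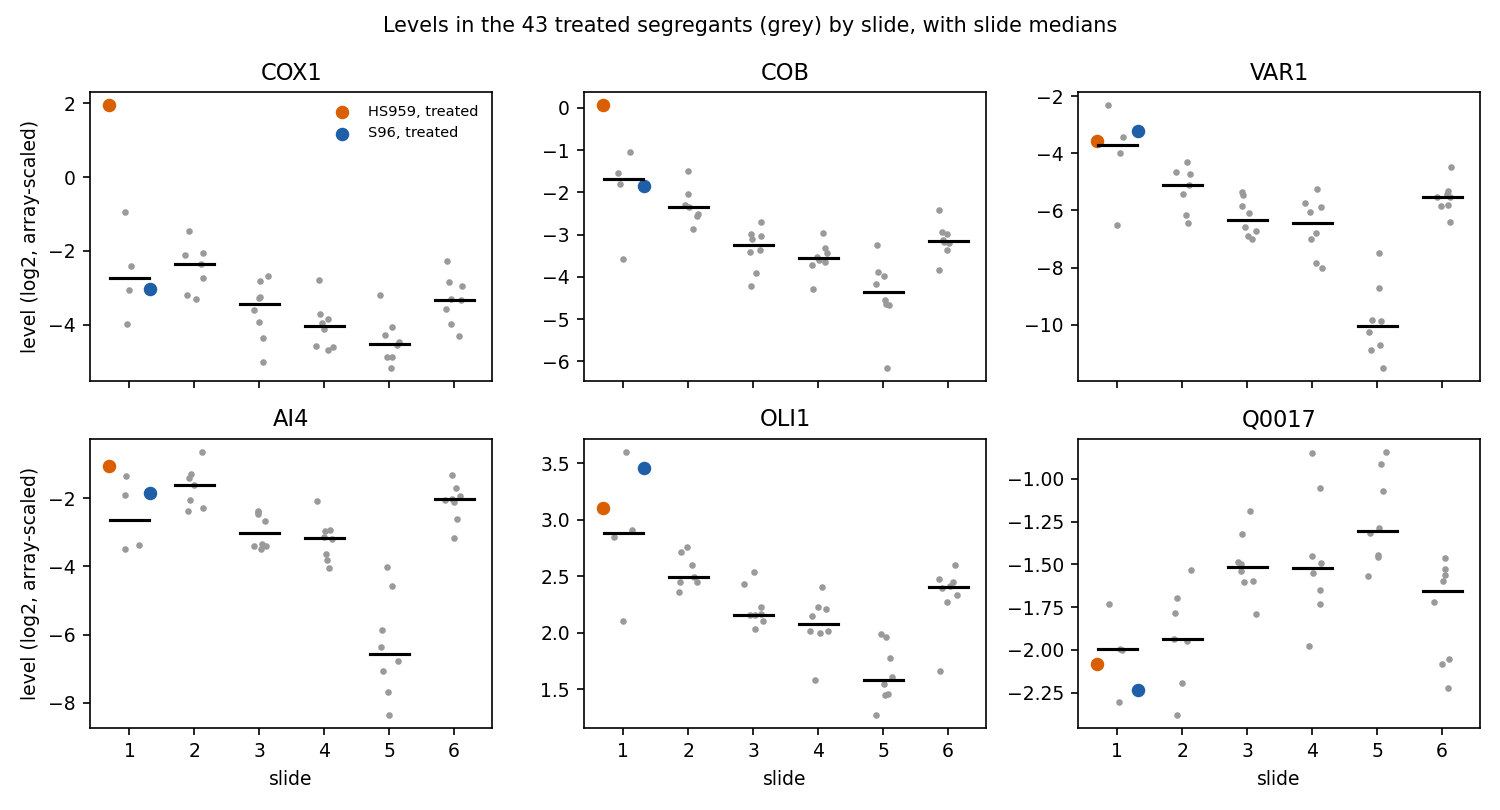
Levels of 6 members in the treated segregants (grey points) by slide, with the slide median as a bar, HS959 (orange) and S96 (blue) on slide 1. VAR1, AI4, COB, COX1 and OLI1 are lowest on slide 5, and Q0017 is highest there.

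Spread within slides was compared with the residual spread of the 6-array fit, after strain and treatment, by a one-sided F test. It was larger for 9 of 22 tested members, against 1142 of 6247 genes (18.3%). The 9 were COX1, COX2, COX3, COB and ATP6 among protein-coding genes, the intron frames AI2 and AI3, and the frames Q0182 and Q0297. COX3 had an SD of 0.596 within slides against a residual SD of 0.100 (F test on limma's moderated variance, adjusted p = 0.0171), and COX2 had 0.796 against 0.161 (adjusted p = 0.0225, same test). AI5_ALPHA, in contrast, had 0.530 against 0.554 and was not called. The median SD within slides was 0.810 over the members and 0.248 over all genes tested. The count depends on the strain whose arrays set the error: it was 0 without SEG8, 1 without HS959 and 16 without S96, and 3 after quantile normalization. Without the segregant SEG14 it was 7.

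Segregants that were high for 1 mitochondrial probe tended to be high for others on the same slide. Over 19 pairs chosen by transcript, slide-centred levels correlated in 17, each tested by 100000 permutations within slides and adjusted over the 19. Pairs of other genes were not tested, so how often such pairs correlate on these arrays is not known. AI2 and AI3, neighbouring frames of COX1, had r = 0.91 and rho = 0.89 over the 43 segregants (two-sided permutation p = 1e-05 for r and for rho, the smallest these permutations can give, adjusted 1.9e-05 for r), and r = 0.90 without the 2 segregants farthest from the median. Within the 5 slides of 6 or more segregants their r was 0.81 to 0.98. COX1 and its 6 intron frames gave r of 0.50 to 0.70. Within these slides r ranged from -0.02 to 0.85 for COX1 with AI3 and from 0.59 to 0.72 for COX1 with AI1.

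Probes from separate transcripts correlated as well. COX1 and COB had r = 0.76 and rho = 0.81 (two-sided permutation p = 1e-05, adjusted 1.9e-05), with r of 0.59 to 0.93 within slides and 0.70 without the 2 farthest segregants. COX1 with COX2 had r = 0.61, with 0.34 to 0.86 within slides and 0.63 without the 2 farthest segregants. COX1 with COX3 had r = 0.57, but 0.08 to 0.54 within slides and 0.41 without the 2 farthest segregants. The 2 co-transcribed pairs gave r = 0.68 for ATP8 and ATP6 and r = 0.54 for OLI1 and VAR1, the second of which ranged from 0.05 to 0.90 within slides and was 0.34 without the 2 farthest segregants (two-sided permutation p adjusted over the pairs = 0.00475). Medians were 0.61 for a gene with its intron frames, 0.80 for neighbouring frames, 0.61 within a transcript and 0.61 between transcripts, and their differences were not tested. The 2 pairs that did not pass both held BI4, which was above background in 15 of 43 segregants. Correlations between probes on the same arrays share whatever the array has in common.

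**Figure D5:**
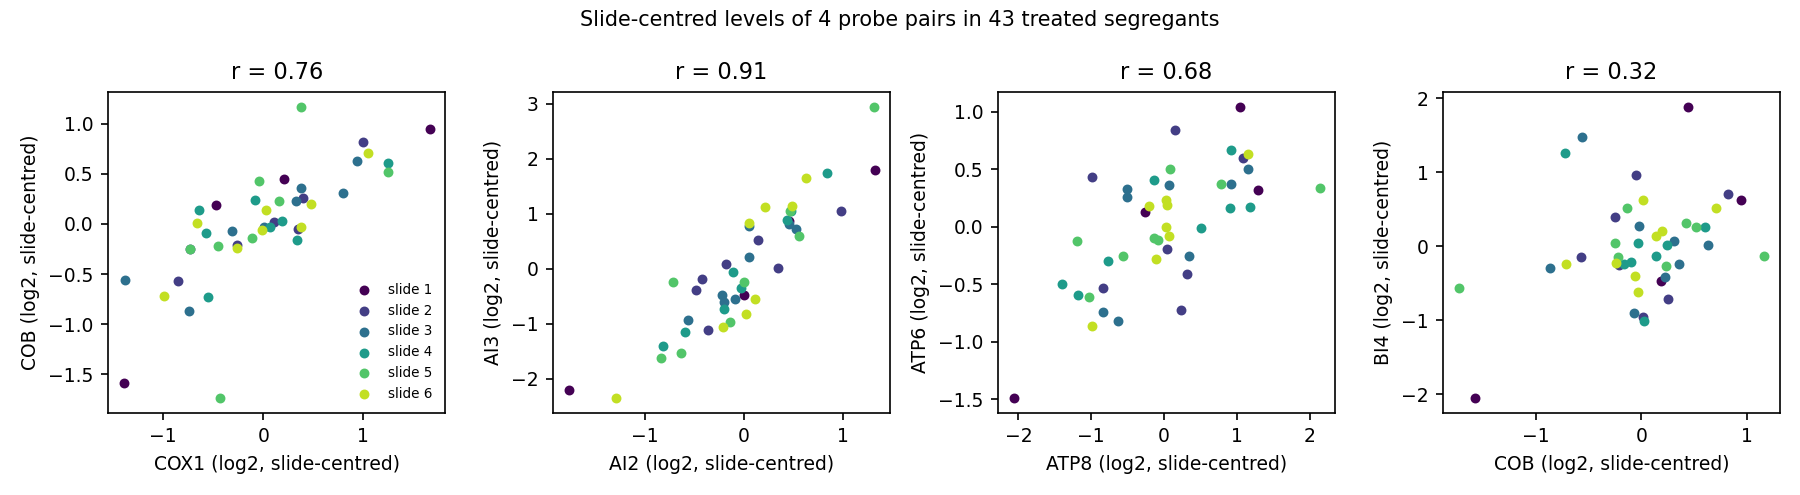
Levels minus their slide mean (log2) for 4 pairs of probes, 1 point for each of the 43 treated segregants, coloured by slide. AI2 and AI3 lie closest to a line (r = 0.91), and COB and BI4 scatter most (r = 0.32).

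Alpha factor left nearly all mitochondrial probes without a call. Over S96, HS959 and SEG8, 1 of 23 members passed in limma and 22 did not, against 2223 of 6252 genes (35.6%). The median change was 0.13 over the members and -0.04 over all genes. The members had a larger residual spread in this fit, with a median SD of 0.357 over 22 of them against 0.116 over all genes tested. With 1 pair of arrays a strain, this spread holds noise and any difference between strains in the change. The 95% interval of the change was -0.93 to 1.41 for VAR1 and -1.28 to 1.14 for SCEI. It was -0.14 to 0.40 for OLI1 and -0.34 to 0.09 for COX3. Where the interval is wide, a change of 1 log2 unit can go without a call. COB was the member called, with changes of 0.55, 0.18 and 0.44 in S96, HS959 and SEG8, a mean of 0.39 ± 0.19 (SD, n = 3 strains, limma adjusted p = 0.0448). This call was lost in 7 of 11 alternatives, among them each fit that left out an array, and its limma adjusted p in those 7 ranged from 0.0733 to 0.863.

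The changes in the 3 strains are given side by side. With alpha factor 21 of 23 members were higher in S96, with a median change of 0.68. In HS959 19 of 23 were lower, with a median of -0.20, and in SEG8 15 were lower, with a median of -0.13. The corresponding medians over all genes were -0.05, -0.07 and -0.01. Of all 6256 genes, 2790 were higher in S96, 3606 were lower in HS959 and 3210 were lower in SEG8. VAR1 changed by 1.55 in S96, by -0.19 in HS959 and by -0.64 in SEG8, and AI4 by 1.33, -0.43 and -0.70. Leaving out an S96 array left the estimate to HS959 and SEG8. The change was then -0.56 for AI4, -0.42 for AI5_BETA, -0.43 for ATP8 and -0.57 for BI4. These members were called as lower in that fit, but not in the fit of all 3 strains. Each strain had 1 pair of arrays, so these differences between strains were not tested.

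Nuclear genes that serve the mitochondrial genome were read from 2 lists. Of 34 factors of mitochondrial gene expression, 9 were higher in HS959 than in S96 and 0 were lower, with a median difference of 0.27. Among them SLS1, which links mitochondrial transcription to translation, was 2.73 ± 0.12 higher (limma adjusted p = 0.000972), and NCA3, linked to expression of ATP6 and ATP8, was 1.99 ± 0.27 higher (limma adjusted p = 0.0125). CBP6, needed for translation of COB, and ATP25, needed for OLI1 messages, were higher by 0.84 and 0.69. Of 34 nuclear subunits of the respiratory chain and ATP synthase, 13 were higher in HS959 and 1 was lower, with a median of 0.35. CYC1, cytochrome c, was 1.99 ± 0.33 higher, CYT1, cytochrome c1, 1.39 ± 0.12 higher and RIP1, the Rieske iron-sulphur protein, 1.22 ± 0.10 higher, while COX5B, the low-oxygen form of an oxidase subunit, differed by -0.97 ± 0.09 (limma adjusted p of 0.0205, 0.00463, 0.00463 and 0.00621). Across all genes 417 (6.67%) were higher and 874 (14%) lower.

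With alpha factor, 6 of the 34 expression factors fell and 0 rose, against 1282 (20.5%) and 941 (15.1%) of all genes tested. NCA3 fell by 1.56 ± 0.22, SLS1 by 0.44 ± 0.10, MSS18, a splicing factor for a COX1 intron, by 0.44 ± 0.08 and MIP1, the mitochondrial DNA polymerase, by 0.41 ± 0.09 (SE, limma adjusted p of 0.0100, 0.0311, 0.0207 and 0.0266). Of the 34 subunits, QCR10 rose by 0.53 ± 0.09 and CYC1 fell by 1.05 ± 0.27 (limma adjusted p = 0.0142 and 0.0408). Between segregants and either parent 0 genes of the 2 lists passed in limma. At an unadjusted p under 0.05, against HS959, 1 factor and 0 subunits did, and against S96 again 1 factor and 0 subunits. Between slides 18 of the 34 factors and 7 of the 34 subunits differed, against 47.9% of all genes tested.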

How the data were processed

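The deposited scanner files hold, per the file headers, Cy3 intensity per spot after background subtraction and detrending by Agilent Feature Extraction 10.5.1.1; the submitters' processing notes name 9.1. The authors' series matrix held the same intensity. Per the file headers, raw median and background intensity and spot flags of 0 or 1 stand beside it. Outlier spots were left out and duplicate spots averaged after log2 and scaling to the 75th percentile. Array precision is limited by the number of arrays.

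Members and lists were chosen with earlier results of these data known. Named were all protein-coding members and intron frames, called other frames, and up to 4 called genes per nuclear list. Symbols come from the R64 gene table, which held 19 of the 23 members and was used for names and neighbours only. Probe, protein and promoter sequences were not used here.

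Fits used limma 3.58.1 in R 4.3.3 with Benjamini-Hochberg adjustment over all genes: treatment and parents on 6 arrays with strain as a block (2 residual and 2.624 prior degrees of freedom), segregants against parents and slides on the treated arrays. The block is the strain itself: the deviations of its treated and untreated arrays correlated at 0.844 to 0.897. Tested genes passed background on 2 or more of the 6 arrays, or on 22 of 43 segregants or a treated parent, which left out Q0255 among the segregants. No member's slide-centred levels formed clusters (a second component in mclust 6.1.1 gained under 10 in BIC). Scripts in Python 3.11.15 were tested on simulated data. Nothing in the labels beyond strain names tells whether cultures were separate, so p-values measure the spread between these arrays.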

Additional observations from a re-analysis of the deposited data

Results flagged for a closer look

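For 19 of the 23 mitochondrial probes, the change with alpha factor had opposite signs in S96 and HS959. Each strain had 1 treated and 1 untreated array, and the difference was not tested. All 23 probes share these arrays, so they are not separate observations. The share of all genes with opposite signs in the 2 strains was not counted. The values below are the S96 change minus the HS959 change on the log2 scale. Among protein-coding genes it was 1.74 for VAR1, 1.37 for ATP8, 0.37 for COX1, 0.36 for OLI1 and 0.35 for ATP6. Among COX1 intron frames it was 2.32 for AI5_ALPHA, 1.76 for AI4, 1.36 for AI1, 1.31 for AI5_BETA, 0.93 for AI3 and 0.55 for AI2. Among the remaining intron frames it was 1.70 for BI3, 1.68 for BI4, 1.55 for SCEI and 1.25 for BI2. Of the other frames, Q0255 had 0.96, Q0182 0.93, Q0010 0.81 and Q0017 -0.36, the 1 negative value. On the treated HS959 array the AI5_ALPHA and BI3 probes, at -11.20 and -10.93, were close to the lowest signal called well above background there, -11.53; the untreated values, -9.56 and -10.41, were further above the limit of -12.15.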

How the results depend on the processing

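Results were recomputed with quantile normalization, nuclear median scaling, outlier spots kept, no filter, normexp, and arrays or slides left out; normexp on the median spot signal and the fits without slide 5 were chosen after seeing the data, and normexp on the mean signal was not run. The count of members differing between HS959 and S96, 11, was 9 to 12 under the other scalings and filters and 6 to 16 when an array was left out. AI2 turned to 0.069 with quantile normalization and ranged from -0.34 to 0.13 when an array was left out, OLI1 to 0.17 with quantile normalization, BI4 to -0.25 with normexp while VAR1 ranged from -0.47 to 1.5 when an array was left out. The strain block is a replicate block: without it, and with normexp, 0 members were called with alpha factor in place of 1. COB lost its call in each fit that left out an array. Without either S96 array, AI4, AI5_BETA, ATP8 and BI4 were called as lower. Of the 4 calls against HS959, 1 remained on the parents' slide alone and 4 under each other alternative. Segregants minus S96, which was not called, turned to -0.48 for COX1, -0.50 for ATP6 and -0.74 for COX2 without the slide term, to 0.0067 (nuclear scaling) and 0.018 (quantile) for AI5_ALPHA, and to -0.050 for COX2 with normexp. The 9 members with excess variance became 18 over all segregants, 3 with quantile normalization, and 0, 1 and 16 when SEG8, HS959 and S96 were left out of the error. The causes were not tested. Correlated pairs numbered 17 to 19 throughout.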
